A study of Drosophila melanogaster with 2 samples.

Results

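Transfer RNA (tRNA) genes were taken as all 290 genes of biotype tRNA, out of 23973 annotated genes, on the chromosome arms 2L, 2R, 3L, 3R, 4 and X of the Drosophila melanogaster dm6 genome. Each was scored by the summits of Bab2 ChIP-seq peaks within 500 bp of its start, counted on the strand of the gene. Bab2 (bric-à-brac 2) is a transcription factor with a BTB domain. Its chromatin was precipitated with an anti-GFP antibody from whole embryos of mixed sex, 0 to 24 h old, of a transgenic line that stably carries Bab2 with GFP at its C-terminus. The study has 1 group of 2 libraries (biological replicate 2 and biological replicate 3), made from separate biosamples of the same fly line, and no other genotype, treatment or age. Control material named in the labels was not analysed here, and a tagged transgene in mixed tissue does not say in which embryonic cells a site was bound.

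tRNA genes are read by RNA polymerase III from promoter elements inside the transcribed sequence, the A box and the B box. Transcription factor TFIIIC binds these boxes and places TFIIIB, which holds Brf, Bdp1 and a TBP-type subunit, just upstream of the start, where the polymerase is recruited. Bab2 is known for its roles in leg segmentation, the ovary and abdominal pigmentation.

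The 290 genes covered 22 isotypes, counting initiator methionine (iMet) and selenocysteine (SeC) apart, and 45 anticodon classes. A name such as tRNA:Gln-TTG-2-1 gives the amino acid, the anticodon, a number for the sequence and a number for the copy. Gene length ran from 71 to 186 bp with a median of 73 bp. There were 95 distinct gene sequences, 52 genes had no identical copy, and the most frequent sequence occurred 13 times. A B box core match (GTTCNANNC) was found in 271 genes. The longer A box was searched as TRGYNNARNNGG (R for A or G, Y for C or T, N for any base) and matched in 84 genes. That pattern is strict and has a fixed spacing, so a gene without a match was not taken to lack an A box. The transcription start site (TSS) of a protein-coding gene was at most 500 bp away from 32 of the 290 genes and further away from 258. The last gene inside that limit was 499 bp and the first outside it 520 bp from such a TSS.

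The 4 sequences below are the strongest tRNA genes away from protein-coding TSSs among the arms from which sequence is shown, and a glutamine gene with no summit in any list. The glutamine pair is shown because a gene with a strong peak nearby and one without can be nearly the same in transcribed sequence. Both valine genes shown had an optimal summit. Capitals mark the B box core, and each sequence is given 5′ to 3′ on the strand of the gene from the RefSeq release 6 assembly.
tRNA:Gln-TTG-2-1: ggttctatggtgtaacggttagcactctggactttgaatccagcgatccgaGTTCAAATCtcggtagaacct
tRNA:Gln-TTG-1-1: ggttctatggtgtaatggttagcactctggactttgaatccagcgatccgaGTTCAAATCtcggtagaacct
tRNA:Val-CAC-2-5: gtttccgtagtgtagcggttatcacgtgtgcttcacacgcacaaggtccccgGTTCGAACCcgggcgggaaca
tRNA:Val-CAC-1-1: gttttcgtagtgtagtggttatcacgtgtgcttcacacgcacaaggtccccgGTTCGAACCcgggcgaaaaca
The first lies at X:3427452-3427523 (minus strand), the second at 3L:11801471-11801542 (minus strand), the third at 3R:19672277-19672349 (minus strand) and the fourth at 3R:17617761-17617833 (plus strand), all on dm6. The glutamine genes shared 71 of 72 bases and differed by C16T, counted from the first base of tRNA:Gln-TTG-2-1. The valine genes shared 69 of 73 bases and differed by C5T, C16T, G68A and G69A, counted from the first base of tRNA:Val-CAC-2-5. tRNA:Gln-TTG-2-1 and tRNA:Val-CAC-1-1 had no identical copy among the 290 genes. tRNA:Val-CAC-2-5 was 1 of 6 identical genes, and tRNA:Gln-TTG-1-1 was 1 of 3. The other copies of that glutamine sequence, tRNA:Gln-TTG-1-2 and tRNA:Gln-TTG-1-3, lie close to a protein-coding TSS and had pooled summits at 48 and 297 bp and replicate 2 summits at 46 and 295 bp. How well reads can be placed in identical tRNA copies was not assessed.

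Peaks came in 4 lists. The optimal list held 4720 peaks that had passed the irreproducible discovery rate procedure, a filter on agreement between replicates. The relaxed lists were the unfiltered input to that procedure and hold weak peaks and background. They had 24109 peaks from pooled reads, 27372 from replicate 2 and 25804 from replicate 3. Signal is the enrichment value the authors deposited for each peak, with a median of 127.8 in the optimal list, 37.65 in the pooled list, 18.94 in replicate 2 and 19.5 in replicate 3. It has no spread of its own and was used only to describe or rank peaks within a list. The sources used here give no read depth. All intervals below are 95% intervals for counting error only, and neighbouring tRNA genes that share a peak make those over genes too narrow.

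Few tRNA genes had a strong Bab2 peak, whereas many more had a weak one. In the optimal list, 17 of the 290 tRNA genes (5.86%, 3.45 to 9.22%) had a summit within 500 bp, beside 11.8% of all 23683 other annotated genes, and these 17 genes had 14 nearest summits between them. In the pooled relaxed list it was 109 genes (37.6%, 32.0 to 43.4%), beside 31.5% of all other genes. Replicate 2 gave 115 genes (39.7%) and replicate 3 gave 109 (37.6%). Starts of protein-coding genes reached 18.0% in the optimal and 44.0% in the pooled list, so the share with a strong peak was lower at tRNA genes than at protein-coding genes.

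Among the 258 tRNA genes away from protein-coding TSSs, 9 (3.49%, 1.61 to 6.52%) had an optimal summit. Other noncoding RNA genes (long noncoding, small nucleolar and small nuclear RNA) equally far from protein-coding TSSs had one at 142 of 2983 starts (4.76%). Of all positions of the arms that far from protein-coding TSSs, 2.12% had an optimal summit within 500 bp. Both percentages fall inside the interval of the tRNA genes, so at this number of genes no difference from noncoding genes or from positions was detectable among strong peaks. The count rests on the library used: as many of the strongest peaks of replicate 3 alone gave 5 genes (1.94%), against 4.69% of other noncoding genes, and of replicate 2 alone 15 genes (5.81%), against 4.96%.

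Weak peaks gave another picture. In the pooled list 91 of the 258 genes (35.3%, 29.4 to 41.4%) had a summit, against 20.1% of other noncoding genes and 13.1% of positions. Replicate 2 marked 97 of them (37.6%, 31.7 to 43.8%), against 23.1% of other noncoding genes and 15.1% of positions. Replicate 3 marked 92 (35.7%, 29.8 to 41.8%), against 21.8% and 14.4%. The share was thus higher at tRNA genes than at noncoding genes in the relaxed list of each library. Small nucleolar RNA genes had a pooled summit at 37 of 240 starts (15.4%). Small nuclear RNA genes had one at 13 of 29 (44.8%). In the optimal list it was 7 of 240 small nucleolar (2.92%) and 6 of 29 small nuclear RNA genes (20.7%, 7.99 to 39.7%). The interval of the small nuclear RNA genes lies above that of the tRNA genes (1.61 to 6.52%). Among them, snRNA:U6:96Ab and snRNA:U6:96Ac share a peak.

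**Figure D1:**
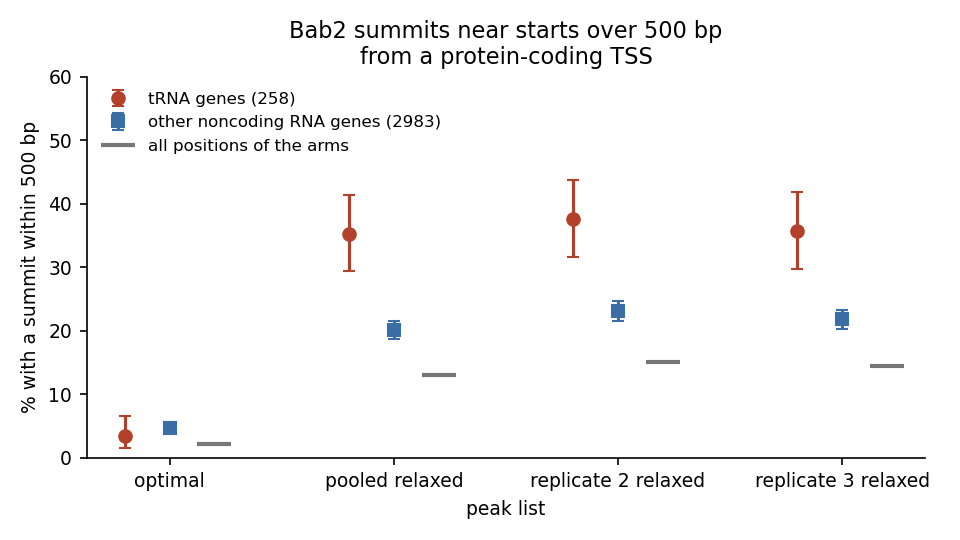
Percent of starts over 500 bp from a protein-coding TSS with a Bab2 summit within 500 bp, in each of the 4 peak lists. Circles are the 258 tRNA genes and squares the 2983 other noncoding RNA genes, with 95% Clopper-Pearson bars, and grey dashes are all positions of the arms. The tRNA genes sat at 35.3 to 37.6% in the relaxed lists and at 3.49% in the optimal list.

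The share of tRNA genes was then followed as weaker peaks were added. Among the 1000 strongest pooled peaks, 0 of the 258 genes had a summit within 500 bp (an interval up to 1.42%), against 1.21% of other noncoding genes. Among the 2500 strongest it was 2 genes (0.775%, 0.094 to 2.77%), against 2.88%. With 7500 peaks the share was 9.3% (24 genes, 6.05 to 13.5%), against 7.07% of noncoding genes. With 10000 peaks it was 11.6% (7.98 to 16.2%), against 8.85%. The noncoding share lay inside the tRNA interval at 1000, 4720, 7500 and 10000 peaks, above it at 2500 and below it from 15000 on. Genes that share a peak make these intervals too narrow. The places at 2500 and 15000 peaks, near an interval limit, are therefore uncertain. With 15000 peaks the tRNA share reached 19.8% (15.1 to 25.2%), against 13.5%, and with 20000 peaks 31.4%, against 17.1%. In number, 81 tRNA genes had a summit with 20000 peaks and 51 with 15000 peaks.

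**Figure D2:**
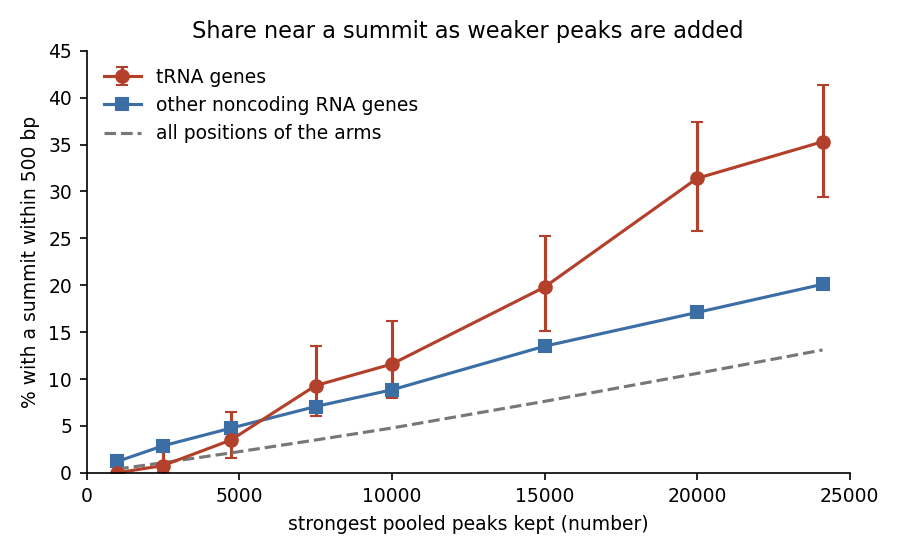
Percent of starts over 500 bp from a protein-coding TSS with a summit within 500 bp (vertical axis) when only the strongest pooled peaks are kept (horizontal axis, number of peaks). The tRNA genes, with 95% Clopper-Pearson bars, lie below the other noncoding genes at 1000, 2500 and 4720 peaks and above them from 7500 peaks on.

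The peaks near tRNA genes had the strength of other weak peaks. The 91 genes had 74 distinct pooled peaks within 500 bp, with a median signal of 34.58, beside 34.97 for 16921 other pooled peaks away from protein-coding TSSs and tRNA genes. Their median −log10 q-value was 0.303, beside 0.316 for those others, so a typical peak of either set would not pass a usual false discovery threshold when taken alone. A summit of both replicate lists lay within 200 bp of 43 of the 74 (58.1%), beside 54.3% of the other peaks. The strongest of the 74 ranked 1063 in the pooled list. The 9 optimal peaks had a median signal of 94.27, beside 121.7 for other optimal peaks away from TSSs and tRNA genes. Base composition, which can move with peak calling, was close: the 50 bp on either side of the 74 pooled summits had a median of 41.6% G+C, beside 40.6% for the others, and its part in the result was not tested.

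By gene, the replicates overlapped in part. Both marked 64 of the 258 genes, which is 66% of the genes replicate 2 marked and 69.6% of those replicate 3 marked. Other noncoding genes away from protein-coding TSSs gave 58.6% and 62.2% for the same overlap. At least 1 replicate marked 125 of the tRNA genes (48.4%), and 130 had no summit in the pooled list or in either replicate list.

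The pooled share was above that of positions in each range of distance to a protein-coding TSS. Between 500 and 1000 bp away, 26 of 47 tRNA genes (55.3%) had a pooled summit, against 20.7% of positions in the same range. Between 1000 and 2000 bp it was 12 of 44 (27.3%), against 17.2%. Between 2000 and 5000 bp it was 24 of 57 (42.1%), against 14.4%, and beyond 5000 bp 29 of 110 (26.4%), against 9.86%. Of the 91 genes, 8 had a nearest summit that was itself no more than 500 bp from a protein-coding TSS.

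Each summit was then counted once, over positions more than 500 bp from a protein-coding TSS, so that shared peaks had no weight. Pooled summits had a density of 309 per Mb (215 to 430, exact Poisson) within 250 bp of a tRNA start and of 404 per Mb (276 to 571) between 250 and 500 bp. Between 500 and 1000 bp it was 299 per Mb, between 1000 and 1500 bp 208 per Mb, and beyond 10000 bp 142 per Mb. Around other noncoding starts the density was 256 per Mb within 250 bp, 232 per Mb between 250 and 500 bp and 127 per Mb beyond 10000 bp. The weak peaks near tRNA genes were spread over 1000 bp on either side, and the intervals of the first rings overlapped. Replicate 2 gave 397 per Mb within 250 bp and 429 per Mb between 250 and 500 bp, against 273 and 296 per Mb around other noncoding starts. Replicate 3 gave 327 and 417 per Mb, against 257 and 238 per Mb. Within 250 bp, the noncoding density lay inside the tRNA interval in the pooled list and in replicate 3 (230 to 450) and below it in replicate 2 (290 to 532). In the optimal list only 2 summits lay within 250 bp of a tRNA start (17.7 per Mb, 2.14 to 63.8), against 52.8 per Mb around other noncoding starts, while 9 lay between 500 and 1000 bp away (65.7 per Mb, 30.0 to 125).

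**Figure D3:**
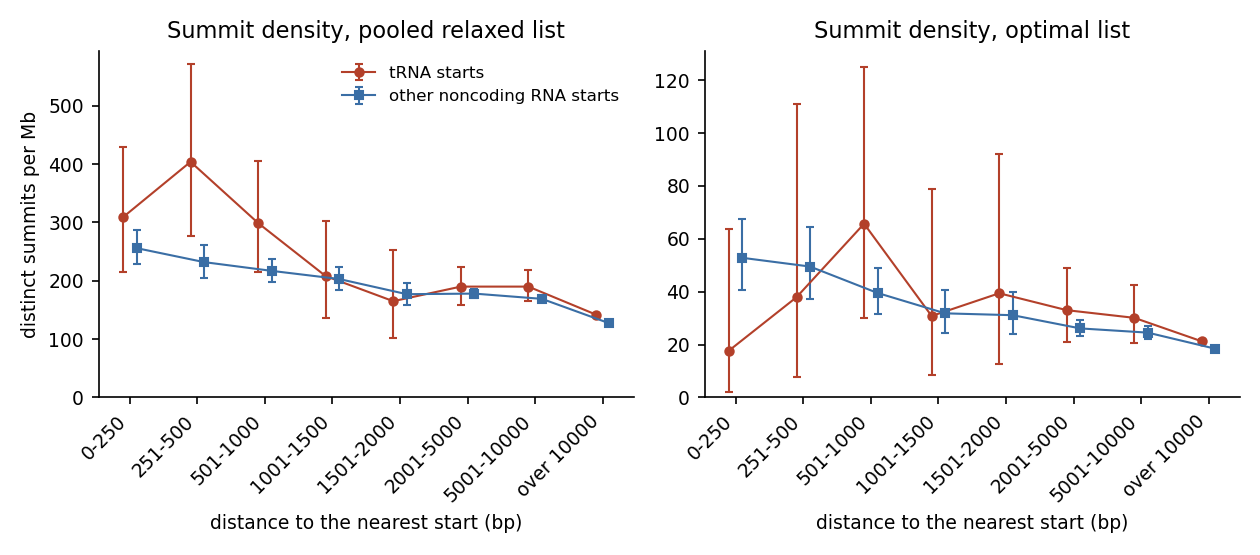
Distinct summits per Mb (vertical axis, from 0) by distance to the nearest tRNA start or other noncoding RNA start (horizontal axis, bp), over positions more than 500 bp from a protein-coding TSS, with 95% exact Poisson bars. In the pooled list the density near tRNA starts was 309 and 404 per Mb in the first rings and 142 per Mb beyond 10000 bp, and the optimal list held few summits in any near ring.

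Around the 91 genes, the nearest pooled summit lay upstream of the gene at 48, inside it at 8 and downstream at 35, with a median of −18 bp from the start (quartiles −250 and 250 bp, negative being upstream). The replicate medians were −35 bp and 16.5 bp. Weak summits were found on both sides of the genes. Of the 9 genes with an optimal summit, 7 had it upstream, 2 downstream and none inside the gene. The median over these genes was −201 bp (quartiles −338 and −141 bp). tRNA:Arg-CCT-1-2 and tRNA:Arg-CCT-1-3 shared an upstream summit, which was counted for both.

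The 9 genes were each described by the signal of the nearest summit, and the replicate values come from lists with their own scale. tRNA:Gln-TTG-2-1 (FBgn0052493), a glutamine tRNA gene inside CG12535 and 8284 bp from the nearest protein-coding TSS, had the strongest peak. Its optimal signal was 209.1, 201 bp upstream of the start, with 78.83 in replicate 2 and 130.1 in replicate 3. The summit ranked 1063 in the pooled list and stood at −197 bp in replicate 2 and −202 bp in replicate 3. The bases around it (X:3427674-3427774, plus strand of dm6) are given because this peak has no protein-coding promoter near it, and the capital marks the summit base.
tRNA:Gln-TTG-2-1 summit: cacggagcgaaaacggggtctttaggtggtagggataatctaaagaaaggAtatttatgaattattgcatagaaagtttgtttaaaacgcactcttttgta
None of the 6 motifs searched was found in this window. The other Gln-TTG gene away from protein-coding TSSs, tRNA:Gln-TTG-1-1, had no summit within 500 bp in any of the 4 lists, with 1 base of difference in the transcribed sequence and another genomic surrounding.

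The next genes read valine codons. tRNA:Val-CAC-2-5 (FBgn0012003), inside the nicotinamidase gene Naam, had a signal of 157.5, with 80.84 in replicate 2 and 76.67 in replicate 3. That summit was 465 bp downstream of the tRNA start and only 434 bp from the TSS of Naam, so the tRNA gene and the Naam promoter share it. tRNA:Val-CAC-1-1 (FBgn0012002), in a group of 5 tRNA genes, had an optimal summit of 103.2 at 447 bp upstream. The windows around these summits (3R:19671834-19671934 and 3R:17617264-17617364, plus strand of dm6, summit base in capitals) also held none of the motifs.
tRNA:Val-CAC-2-5 summit: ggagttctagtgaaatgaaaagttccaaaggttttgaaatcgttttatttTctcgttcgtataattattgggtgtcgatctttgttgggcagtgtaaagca
tRNA:Val-CAC-1-1 summit: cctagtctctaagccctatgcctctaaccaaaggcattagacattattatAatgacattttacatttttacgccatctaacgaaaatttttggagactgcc
A weaker peak lay closer to tRNA:Val-CAC-1-1, at −248 bp with a signal of 35.3 in the pooled list, 20.79 in replicate 2 and 36.82 in replicate 3. The other 5 Val-CAC genes away from protein-coding TSSs had no summit within 500 bp in any list. They are the identical copies of tRNA:Val-CAC-2-5.

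Among the remaining 6 genes, a pair of neighbours shared a peak. tRNA:Arg-CCT-1-2 and tRNA:Arg-CCT-1-3 lie head to head on 2R, at 20000296-20000368 on the minus strand and 20000819-20000891 on the plus strand. A single summit between them had an optimal signal of 94.27, at 141 bp upstream of the first and 310 bp upstream of the second, and 4494 bp from a protein-coding TSS. Replicate 2 gave this summit 63.6 and replicate 3 gave it 32.53. These are 2 of the 3 Arg-CCT genes away from protein-coding TSSs, and the remaining one had no optimal or pooled summit.

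tRNA:Glu-TTC-1-5 (2R:19727460-19727531, minus strand) had 84.64 in the optimal list, 30.0 in replicate 2 and 53.99 in replicate 3, at 295 bp downstream of its start and 13160 bp from a protein-coding TSS. tRNA:Thr-AGT-1-2 (2R:7070760-7070833, minus strand), inside CG12831, had 80.48 in the optimal list and 58.52 in replicate 2, both about 338 bp upstream. The nearest replicate 3 summit to tRNA:Thr-AGT-1-2 was another one, with 15.27 at 113 bp downstream. So the replicate 3 value of the optimal peak itself is not given for this gene.

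The last genes lay beside protein-coding promoters. tRNA:Trp-CCA-2-6 (2R:21182678-21182749, minus strand) had 114.1 in the optimal list, 48.23 in replicate 2 and 59.15 in replicate 3, at 448 bp upstream. That summit was 125 bp from the TSS of tud, which encodes the germ plasm protein Tudor. tRNA:Asp-GTC-1-4 (2L:8541552-8541623, minus strand) had 83.9, 190 bp upstream, with 41.31 in replicate 2 and 35.44 in replicate 3, and the summit was 334 bp from the TSS of Sema1a, an axon guidance gene. In all, 3 of the 9 genes had a summit that was also no more than 500 bp from a protein-coding TSS.

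**Figure D4:**
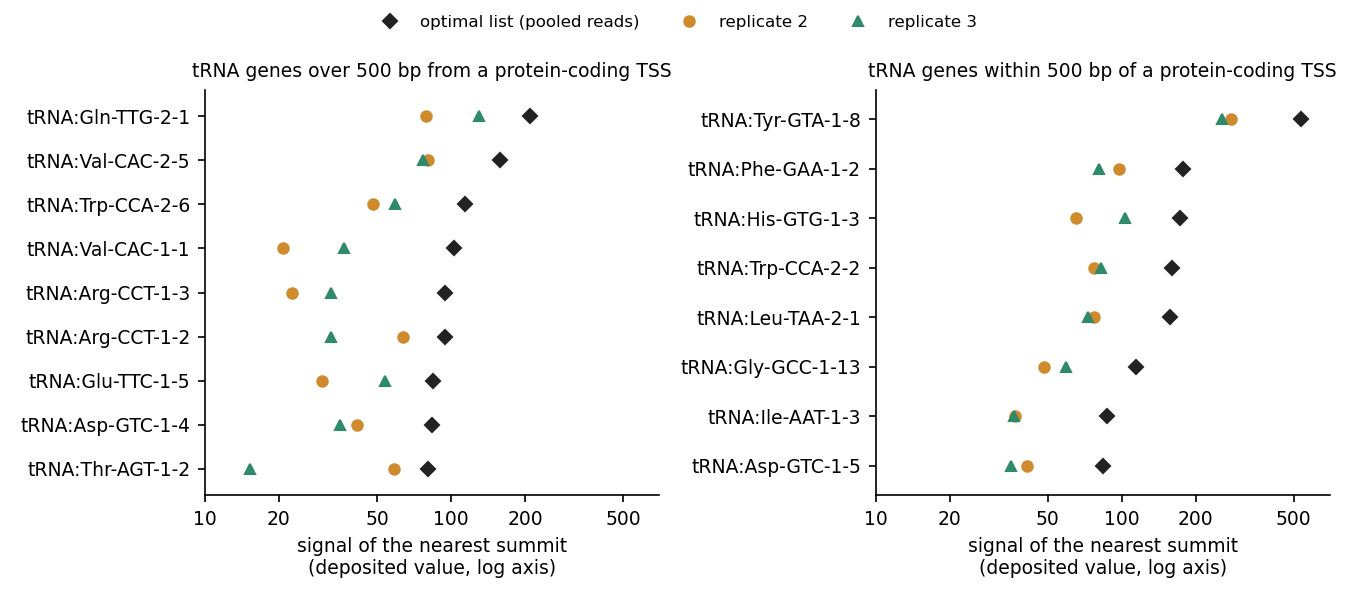
Deposited signal (horizontal log axis) of the summit nearest to each tRNA gene with an optimal summit within 500 bp, for genes over 500 bp from a protein-coding TSS (left) and within 500 bp (right). Diamonds are the optimal list, circles replicate 2 and triangles replicate 3, and lists have their own scale. For tRNA:Val-CAC-1-1, tRNA:Arg-CCT-1-3 and tRNA:Thr-AGT-1-2 at least 1 replicate value belongs to another summit than the optimal one. tRNA:Tyr-GTA-1-8 had the highest signal, 536.0.

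The 32 tRNA genes close to a protein-coding TSS had an optimal summit in 8 cases (25%, 11.5 to 43.4%), against 12.3% of the 579 other noncoding genes as near to a TSS and 13.0% of positions. In the pooled list it was 18 genes (56.2%, 37.7 to 73.6%), against 42.5% of noncoding genes and 37.4% of positions. Replicate 2 also gave 18, and replicate 3 gave 17 (53.1%). In 6 of the 8 genes the summit was nearer to the protein-coding TSS than to the tRNA start. Peaks of these promoters can therefore not be told apart from peaks of the tRNA genes beside them.

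The strongest peak at any tRNA gene belonged here. tRNA:Tyr-GTA-1-8 (FBgn0012024; 3R:8669081-8669174, minus strand), inside CG8036, had an optimal signal of 536.0 (rank 137), with 277.9 in replicate 2 and 255.8 in replicate 3. The summit lay 224 bp upstream of the tRNA start and 220 bp from the TSS of CG8036, so it was about as near to one as to the other. tRNA:Phe-GAA-1-2 (X:6744471-6744543, minus strand) had 178.2, with 97.54 in replicate 2 and 81.07 in replicate 3, and its summit was 71 bp from the TSS of the ribosomal protein gene RpL17. The summit stood at 234 bp downstream in all 4 lists.

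tRNA:Asp-GTC-1-5 (FBgn0051603; 2L:8541761-8541832, plus strand) shared the Sema1a peak (83.9) with its divergent neighbour tRNA:Asp-GTC-1-4. It was the only tRNA gene with an optimal summit inside its own sequence, 52 bp from the start, and was singled out after its values were seen. The bases around that summit (2L:8541763-8541863, plus strand of dm6) show it inside the internal promoter: it is the second base of the B box core. Capitals mark the B box core, TCGATA (the reverse complement of the DRE core TATCGA) and GAGAG.
tRNA:Asp-GTC-1-5 summit: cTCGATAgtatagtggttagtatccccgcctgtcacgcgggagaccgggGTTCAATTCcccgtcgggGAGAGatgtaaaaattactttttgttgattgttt
The summits of the replicates stood at 29 bp in replicate 2 and at 52 bp in replicate 3, both also inside the gene.

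tRNA:His-GTG-1-3 (2R:12334995-12335066, minus strand) had 171.9, with 65.13 in replicate 2 and 103.5 in replicate 3, and the summit was 77 bp from the TSS of CG8490. tRNA:Trp-CCA-2-2 (2R:18639557-18639628, plus strand) had 159.3, with 77.22 in replicate 2 and 82.18 in replicate 3, and the summit was 22 bp from the TSS of CG30122. tRNA:Leu-TAA-2-1 (3R:24112964-24113047, plus strand) had 156.6, with 77.07 in replicate 2 and 73.03 in replicate 3. The tRNA start was 322 bp from the TSS of Root, which encodes rootletin, a protein of ciliary rootlets. The summit lay 236 bp upstream of the tRNA start and 339 bp from the nearest protein-coding TSS, so the tRNA start was nearer.

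Other genes near protein-coding TSSs had weaker peaks. tRNA:Gly-GCC-1-13 shared the tud peak (114.1) with tRNA:Trp-CCA-2-6, and tRNA:Ile-AAT-1-3 had 86.81 at 114 bp from the TSS of ATP8A.

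Below the optimal list, 82 of the 258 genes away from protein-coding TSSs had a pooled summit only among the weaker peaks, and 49 of these were also marked in both replicates. The highest was tRNA:Pro-CGG-2-1 in Bx, a LIM-domain cofactor gene, with 72.37 in the pooled list, 39.18 in replicate 2 and 35.45 in replicate 3, at 325 bp downstream of the start. That summit was nearer to a protein-coding TSS, at 217 bp. A peak of 66.92 in mrj, a J-domain chaperone gene, lay within 500 bp of tRNA:Glu-TTC-1-1, tRNA:Glu-TTC-1-2 and tRNA:Glu-CTC-1-1, so 1 peak scored 3 genes. tRNA:Lys-TTT-1-1 in the tyrosine kinase gene Btk had 66.62, with 28.81 in replicate 2 and 35.97 in replicate 3. The highest of these peaks ranked 5038 in the pooled list, not far below the last optimal peak in signal (76.1).

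Grouping the genes whose starts lay up to 2000 bp apart gave 160 units, of which 91 were single genes and 69 were groups holding 199 genes. In 48 of the 69 groups all genes had the same isotype. An optimal summit lay within 500 bp of a member in 14 of the 160 units (8.75%, 4.87 to 14.2%) and a pooled one in 67 (41.9%, 34.1 to 49.9%). A unit counted when any of its members did, so these shares cannot be set beside those of single starts. No background over units of like size was counted. Replicate 2 gave 67 units and replicate 3 gave 69.

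Away from protein-coding TSSs, genes in groups had a weak peak nearby more often than lone genes. A pooled summit lay near 48 of 111 genes in groups of 3 or more (43.2%) and 26 of 63 genes in pairs (41.3%), against 17 of 84 single genes (20.2%). Replicate 2 gave 44.1% and 47.6%, against 21.4% of single genes, and replicate 3 gave 40.5% and 41.3%, against 25%. Genes of a group share peaks, so these counts are not independent, and the share of single genes was close to the 20.1% of other noncoding genes. Intergenic tRNA genes had a pooled summit in 59 of 141 cases (41.8%), against 32 of 117 genes inside a protein-coding gene (27.4%), but replicate 3 gave 37.6%, against 33.3%. Genes with no identical copy had one in 22 of 47 cases (46.8%), against 69 of 211 with copies (32.7%), while replicate 2 gave the opposite order, 34%, against 38.4%.

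The 5 largest groups differed. The group with tRNA:Ile-AAT-1-3 on 2R (13430282-13432794, 7 isoleucine and leucine genes) had a pooled summit near all 7 genes, from 3 summits with signals of 86.81, 29.39 and 38.6. Replicate 2 marked 6 of these genes and replicate 3 all 7, and the strongest summit was the one near the TSS of ATP8A. The glutamate and initiator methionine group on 2R (19725620-19728958, 7 genes) had pooled summits near 5 genes, with 84.64, 34.55 and 33.24.

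In the pooled list, the other large groups had summits near fewer genes. The arginine and serine group on X (14014814-14017284, 7 genes on the plus strand) had 1 pooled summit, near 2 genes, and both replicates also marked 2 genes. The cysteine and lysine group on 3L (3095737-3097590, 6 genes) had a pooled summit near 1 gene, while replicate 2 marked 3 and replicate 3 marked 4. The arginine and asparagine group on 3R (8139533-8141042, 6 genes on the minus strand) had a pooled summit near 2 genes, with 2 in replicate 2 and 3 in replicate 3.

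The genes were spread unevenly over the arms, with 98 on 2R, 79 on 3R, 48 on 3L, 41 on 2L, 24 on X and none on arm 4. Of the genes away from protein-coding TSSs, 40 of 88 on 2R (45.5%) and 28 of 67 on 3R (41.8%) had a pooled summit. On 2L it was 12 of 36 (33.3%), on X 5 of 23 (21.7%) and on 3L 6 of 44 (13.6%). In the replicates 2R stayed highest, with 46.6% and 50%, while 3L had 25% and 22.7% and X had 17.4% and 21.7%. No gene of 3L away from protein-coding TSSs had an optimal summit.

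Isotypes were read beside the pooled share of 35.3% over all 258 genes away from protein-coding TSSs and 20.1% of other noncoding genes. At such shares most isotypes would hold a gene with a summit, so their number says little about isotypes. In genes away from protein-coding TSSs, 20 of the 22 isotypes had at least 1 gene with a pooled summit, the exceptions being the 3 histidine genes and the single selenocysteine gene. The highest shares were 6 of 9 isoleucine genes, 4 of 7 tyrosine genes, and 3 of 6 for both elongator methionine (Met) and initiator methionine genes. Isoleucine had 4 genes in replicate 2 and 7 in replicate 3, and 4 of the 6 pooled ones belong to the isoleucine and leucine group above.

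The common isotypes lay closer together. Pooled summits were near 10 of 26 arginine, 9 of 20 serine, 8 of 20 leucine, 7 of 16 proline and 7 of 15 alanine genes. Glutamate had 6 of 17, glycine 5 of 17, threonine 5 of 14, lysine 4 of 18, and valine, glutamine and tryptophan 3 each of 13, 9 and 7. Among isotypes with a pooled summit, the lowest were asparagine with 1 of 10, aspartate with 2 of 11, and cysteine and phenylalanine with 1 of 7 and 1 of 6.

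Several of these counts moved between the libraries. Cysteine had 3 genes in replicate 2 and 4 in replicate 3, phenylalanine had 4 and 3, and tyrosine had 2 and 3. Initiator methionine had 3 of 6 in the pooled list and in both replicates. With 1 to 26 genes an isotype, no order of isotypes was tested. Optimal summits were spread over 7 isotypes, with 2 arginine and 2 valine genes, and 1 each for aspartate, glutamine, glutamate, threonine and tryptophan away from protein-coding TSSs.

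**Figure D5:**
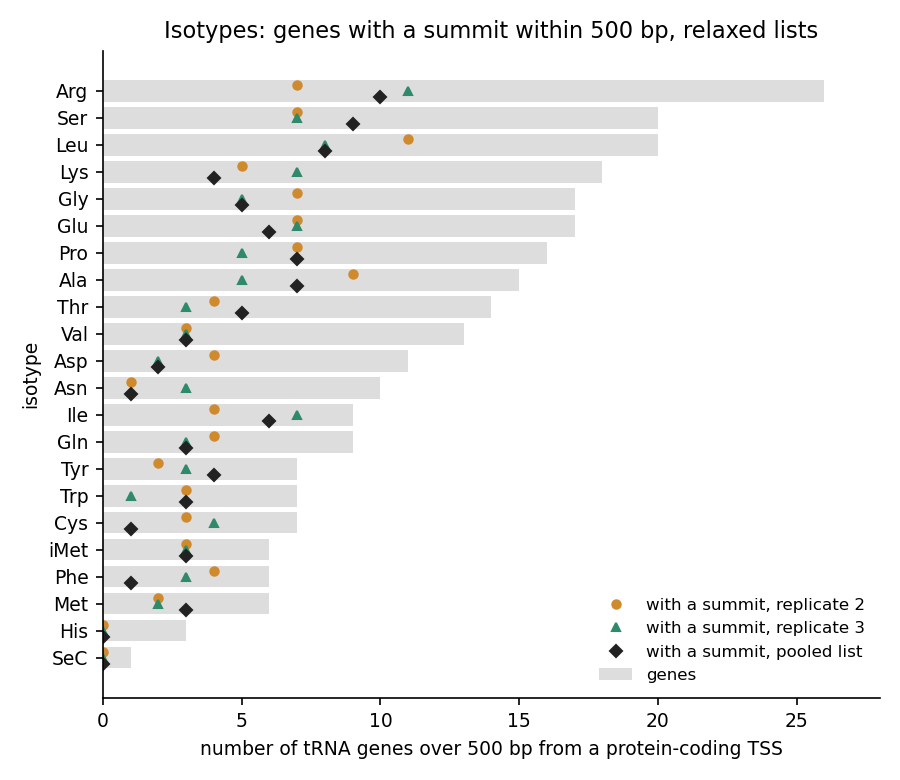
Number of tRNA genes over 500 bp from a protein-coding TSS (horizontal axis) by isotype: grey bars are all genes, circles those with a summit within 500 bp in replicate 2, triangles in replicate 3 and diamonds in the pooled list. The 3 histidine genes and the selenocysteine gene had none, and arginine had 10 of 26 in the pooled list.

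Motifs were searched on both strands in windows of 50 bp on either side of a summit. The B box core GTTCNANNC was found in 10 of the 74 pooled windows near tRNA genes away from protein-coding TSSs (13.5%), against 3.12% of all 24109 pooled windows, and the A box in 5 (6.76%), against 1.94%. Windows close to a tRNA gene can hold part of that gene, and how many of the matches lie inside tRNA genes was not counted. GAGAG, bound by GAGA factor, was in 12 windows (16.2%), against 11.8%. The DRE core TATCGA was in 2 (2.7%), against 5.5%, the motif 1 core CACACT in 1 (1.35%), against 6.46%, and CACGTG in 1 (1.35%), against 1.17%. DRE and motif 1 are elements of protein-coding promoters, and among other pooled summits away from such TSSs they were found in 3.09% and 5.76% of windows.

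Other genes read by RNA polymerase III were mixed. The U6 small nuclear RNA genes snRNA:U6:96Ab and snRNA:U6:96Ac, on 3R at 7675 and 8198 bp from a protein-coding TSS, shared an optimal peak of 207.0, with 84.39 in replicate 2 and 118.2 in replicate 3. The summit was 125 bp from the start of snRNA:U6:96Ac and 398 bp from that of snRNA:U6:96Ab, while the third copy, snRNA:U6:96Aa, was 1002 bp away. U6 genes have upstream promoters and no internal boxes of the tRNA kind. Pooled summits without an optimal one lay near snRNA:7SKa (60.05), RNaseP:RNA (49.43), the RNA of the enzyme that trims tRNA 5′ ends, and RNaseMRP:RNA (33.12).

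No summit lay within 500 bp of the 2 genes of the signal recognition particle RNA (7SL), of snRNA:U6atac or of snRNA:7SKb in the pooled list. In all, 2 of these 10 genes had an optimal and 5 a pooled summit, and the 2 share a single peak. Among the 3562 long noncoding, small nucleolar and small nuclear RNA genes it was 5.98% and 23.7%. With 10 genes, no difference from these shares was tested. The 96 annotated 5S ribosomal RNA genes on 2R, which have an internal promoter of another type, had 0 in every list. As independent genes they would allow a share of up to 3.12%. They are near-identical tandem copies and not independent, so that limit is too narrow and a count there is uncertain. Read placement in them was not assessed, so the count of 0 does not show absence. The nearest pooled summit was 752 bp from a 5S start. The 5 tRNA pseudogenes had 0 optimal summits and 2 pooled ones, which are too few genes for a share.

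Genes for proteins of RNA polymerase III transcription and tRNA maturation were also scored. The list also held Myc and the genes Pbp45, Pbp49 and Pbp95 of a complex at small nuclear RNA promoters. The shares are therefore not those of tRNA synthesis alone. Of 35 listed genes, 9 (25.7%, 12.5 to 43.3%) had an optimal summit at most 500 bp from any TSS, beside 20.1% of all 13945 protein-coding genes, and 21 (60%, 42.1 to 76.1%) a pooled one, beside 47%. Both intervals include the value for all protein-coding genes. Bdp1, a subunit of TFIIIB, had a signal of 773.7 at 67 bp upstream of its TSS, above every tRNA gene. Brf, the TFIIIB subunit related to TFIIB, had 495.7 at 98 bp upstream.

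Others were weaker. Pbp95, of the complex that binds U6 and other small nuclear RNA promoters, had 154.6. RNaseZ, the nuclease that removes tRNA 3′ trailers, had 124.2, and La, which binds the ends of new RNA polymerase III transcripts, had 93.51. The polymerase subunit gene Polr3E had 92.55, and the cytosine methyltransferase gene Nsun2 had 76.35.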

How the data were processed

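ChIP-seq peak lists of 1 group (2 libraries) were used. The authors deposited narrowPeak lists on dm6: relaxed lists of replicate 2, replicate 3 and pooled reads, and an optimal list left after filtering by irreproducible discovery rate, per the deposited README files. The signal per peak is the authors' enrichment value, on a scale that is not stated. The deposited −log10 q-value described peaks only, and the summit offset in the other deposited column gave summit positions (1-based peak start plus offset). Aligner, peak caller and read depth are not given in the sources used here, and 4 lists on dm3 were not used.

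Genes and TSSs were taken from Ensembl 115 (FlyBase 6.54) and sequences from the RefSeq release 6 assembly. A gene counted when a summit lay within 500 bp of its start. Genes with starts up to 2000 bp apart on either strand formed a group. Shares of genes carry 95% Clopper-Pearson intervals and densities exact Poisson intervals. Beside a count of 0 stands its interval, or the share that 3 counts would give. The baseline over positions was counted exactly over the 134 Mb of the arms. A replicate peak matched within 200 bp. The B box core was searched from base 40 of a gene and the A box in bases 1 to 25. With 1 group, no test compares groups. The scoring was tested on simulated peaks. Tools were scipy 1.17.1, pandas 2.3.3, numpy 2.4.6 and matplotlib 3.10.9 under Python 3.11.15.

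The members, lists, named genes and tests were chosen with earlier results of these data known. Named were all tRNA genes over 500 bp from a protein-coding TSS with an optimal summit, the 5 strongest within 500 bp, the 5 highest without an optimal summit among those in all 3 relaxed lists, the 5 largest groups, every isotype, and listed RNA polymerase III genes and proteins. Sequences were those of the 3 strongest named genes outside 2R, with tRNA:Gln-TTG-1-1 as a gene of the same anticodon and no summit. No Val-CAC gene without a summit was printed. Genes of a group and identical copies share their surroundings or reads. Alternatives changed the window, the distance measured, the peaks kept, the grouping distance, the distance to protein-coding TSSs and the replicates. Values of some listed protein-coding genes are not reported here.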

Additional observations from a re-analysis of the deposited data

How the results depend on the processing

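Of 29 alternatives, 17 left a value within its interval or spread. For the median distance the spread was the standard deviation of the 2 single-replicate medians, which was 0. Any change there counted as moved, also −202 bp against −201 bp, so the tally says little about that distance. The share of all 290 tRNA genes with an optimal summit (5.86%) was 2.76% at 250 bp, 12.4% at 1000 bp and 2.41% with the 2360 strongest optimal peaks. For the 258 genes away from protein-coding TSSs (3.49%) it was 1.16%, 9.69% and 0.775%, against 2.48%, 10.1% and 2.65% of other noncoding genes. The pooled share (37.6%) was 19.3% at 250 bp and 57.6% at 1000 bp, and away from protein-coding TSSs 17.8% and 55.4%, against 11.1% and 34.8% of other noncoding genes. The median distance of the nearest optimal summit (−201 bp) was −190 bp at 250 bp and −448 bp at 1000 bp, as the window itself sets how far a summit may lie. The full relaxed list of 1 replicate in place of the pooled list gave 37.6 to 39.7% of all tRNA genes. Taking the strongest peaks of 1 replicate in place of the optimal list gave 4.83 to 7.93% of all tRNA genes. This second choice gave 6.88 to 10.6% of groups and a median distance of −202 bp in both cases. Away from protein-coding TSSs it gave 1.94% without replicate 2 (5 genes) and 5.81% without replicate 3 (15 genes), against 4.69% and 4.96% of other noncoding genes. The order of tRNA and noncoding genes among strong peaks thus changed with the replicate, and the cause was not tested. No gene of biotype tRNA was marked as a pseudogene, so leaving those out changed no value. No paired analysis was possible because there was 1 group. The limits are 2 libraries, no read depth, no control signal analysed, and 9 genes behind the optimal share.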
